A study of Homo sapiens with 12 samples.

Results

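The desquamation kallikreins KLK5, KLK6, KLK7, KLK8, KLK9, KLK10, KLK11, KLK13 and KLK14 and their inhibitor SPINK5 were read out by gene symbol, giving 10 of the 58735 genes counted. RNA was sequenced from 2 immortalized keratinocyte lines, HaCaT of skin and TIGK of gingiva, the latter carrying telomerase. Each line was left untreated in DermaLife K Keratinocyte Complete Medium or given 5 mM H2O2 over 3 h. This makes 4 groups of 3 libraries, 12 in all. The cells were grown to full confluency before treatment, and both lines share the medium. Each tissue is represented by 1 immortalized line, so a difference between skin and gingiva and a difference between these lines cannot be told apart. No source states that the 3 libraries of a group came from separate cultures, so the p-values measure the spread between these libraries, which may be technical.

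Tissue kallikreins are secreted serine proteases that are made as inactive proenzymes and are switched on by cleavage of a short leading peptide. In the outer epidermis KLK5 (trypsin-like) and KLK7 (chymotrypsin-like) cut the desmosomal proteins that hold corneocytes together, and KLK5 can activate itself as well as KLK7 and other family members. SPINK5 encodes LEKTI, a protein of many Kazal-type inhibitory domains that blocks KLK5, KLK7 and KLK14, and its loss causes Netherton syndrome, a disease of uncontrolled shedding and barrier failure.

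The upstream sequences of 4 members are shown here because the results turn on them: KLK5 had the highest level, KLK6 was the member that passed the test after H2O2, KLK7 differed most between the lines, and SPINK5 is the inhibitor. Each is the 250 bases before a RefSeq start site in GRCh38.p14, on the strand of the gene, as the first start listed for that gene. Capitals mark matches on either strand to TATAA (the core of the basal promoter element of that name), GGGCGG (a GC-rich site bound by SP1), TGACTCA (an AP-1 site) or TGACNNNGC (the core of an antioxidant response element), with overlapping matches run together.
KLK5, chr19:50953039-50953288, minus strand: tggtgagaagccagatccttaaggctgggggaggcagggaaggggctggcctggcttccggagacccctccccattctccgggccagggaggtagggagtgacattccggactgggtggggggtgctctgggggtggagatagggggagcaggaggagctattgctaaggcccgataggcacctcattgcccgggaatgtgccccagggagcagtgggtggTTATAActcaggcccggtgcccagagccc
KLK6, chr19:50969592-50969841, minus strand: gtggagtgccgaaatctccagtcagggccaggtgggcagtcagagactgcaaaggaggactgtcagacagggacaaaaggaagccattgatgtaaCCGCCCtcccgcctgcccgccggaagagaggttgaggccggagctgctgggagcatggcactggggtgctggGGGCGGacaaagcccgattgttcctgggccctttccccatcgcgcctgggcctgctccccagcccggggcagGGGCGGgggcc
KLK7, chr19:50983918-50984167, minus strand: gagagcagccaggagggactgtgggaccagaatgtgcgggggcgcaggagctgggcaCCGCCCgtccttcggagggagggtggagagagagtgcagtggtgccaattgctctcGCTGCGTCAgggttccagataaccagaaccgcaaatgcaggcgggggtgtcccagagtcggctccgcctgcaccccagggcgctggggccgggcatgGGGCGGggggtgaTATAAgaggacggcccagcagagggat
SPINK5, chr5:148063730-148063979, plus strand: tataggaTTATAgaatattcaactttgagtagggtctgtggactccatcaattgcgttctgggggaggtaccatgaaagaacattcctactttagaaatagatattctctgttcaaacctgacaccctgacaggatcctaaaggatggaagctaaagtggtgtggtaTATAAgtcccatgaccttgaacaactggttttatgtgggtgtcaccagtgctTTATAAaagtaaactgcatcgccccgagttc

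KLK5, KLK7 and SPINK5 each held TATAA on the strand of the gene shortly before the start, beginning at -28, -27 and -30. KLK6 held no TATAA in this window and 3 GGGCGG matches, at -83 and -11 on its own strand and at -155 on the other. Over the 9 members with a RefSeq window (16 windows, KLK8 without an entry), 4 members held TATAA, 6 held GGGCGG, 2 held TGACNNNGC and 0 held TGACTCA. Of 35116 such windows of all genes, 18.93% held TATAA, 42.64% GGGCGG, 10.91% TGACNNNGC and 4.203% TGACTCA, so a gene with several windows had more chances of a match than a single window. The printed SPINK5 window lies inside the span of the gene as counted, since that span starts at an earlier base.

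The 9 kallikrein genes lie together on chromosome 19 (GRCh38), between base 50943303, the end of KLK5, and base 51084245, the start of KLK14. This stretch of 140.9 kb holds 10 kallikrein genes, all on the minus strand, the further one being KLK12. KLK6 spans 50958631 to 50969673 and KLK7 spans 50976482 to 50984099. SPINK5 lies apart, on the plus strand of chromosome 5 from 148025683 to 148137289.

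Library totals lay between 30426401 and 49034244 counts. Of the 10 members, 9 had a mean raw count of at least 10 and were tested, and each of these 9 had a mean of at least 9.33 raw counts in its lowest group. The basal keratinocyte genes KRT5, KRT14, TP63, ITGA6 and ITGB4 were all present and their summed normalized count was 968200 to 1305000 over all libraries. KRT19, a keratin of mucosal epithelium, averaged 53260 ± 1533 normalized counts in untreated TIGK and 3493 ± 390 in untreated HaCaT (SD, n = 3). In the same mucosal list of 4 genes, KRT13 averaged 12980 ± 192 and 685.7 ± 149.7. KRT4 went the other way, at 53.7 ± 4.65 in untreated TIGK and 135.9 ± 29.1 in untreated HaCaT. KRT76 held 0 raw counts in untreated TIGK and 2 to 6 in untreated HaCaT. Among 7 fibroblast markers, COL1A2 was at 0 in every library, while the summed level was 803.7 to 864.7 in untreated TIGK and 319.4 to 417.7 in untreated HaCaT. The immune markers summed to at most 125.5 and the endothelial markers to at most 61.89 normalized counts in any library, and the melanocyte markers to 426.4 to 447.9 in untreated TIGK and 153.6 to 182.3 in untreated HaCaT. The part of these other markers in the differences between the lines was not tested.

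KLK5 was the most abundant member per length in every library and KLK10 came next. On the RPKM scale (reads per length of gene and library size, scaled by TMM), KLK5 averaged 24.1 ± 1.26 in untreated TIGK and 50.4 ± 2.34 in untreated HaCaT (SD, n = 3). KLK10, a kallikrein often lost in tumours, averaged 7.67 ± 0.183 and 8.90 ± 0.0954 RPKM in the same groups. Together these genes made up 84.5%, 85.3%, 80.8% and 81.8% of the RPKM summed over the 9 kallikreins in untreated TIGK, treated TIGK, untreated HaCaT and treated HaCaT.

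The order below them differed between the lines. In untreated TIGK, KLK11 followed at 1.75 RPKM, then KLK13 at 1.36, SPINK5 at 0.990, KLK6 at 0.913, KLK8 at 0.742, KLK14 at 0.525 and KLK7 at 0.519. Each neighbour in this run from KLK11 to KLK7 overlapped the next over the 3 libraries, so the order of adjacent genes is not resolved. In untreated HaCaT, KLK7 came after KLK10 at 5.67 RPKM, followed by KLK8 at 3.91, KLK11 at 2.61, SPINK5 at 1.58 and KLK14 at 0.918, with no overlap between neighbours. KLK6 (0.511 RPKM) and KLK13 (0.476 RPKM) came last of the tested members there, and their libraries overlapped.

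**Figure D1:**
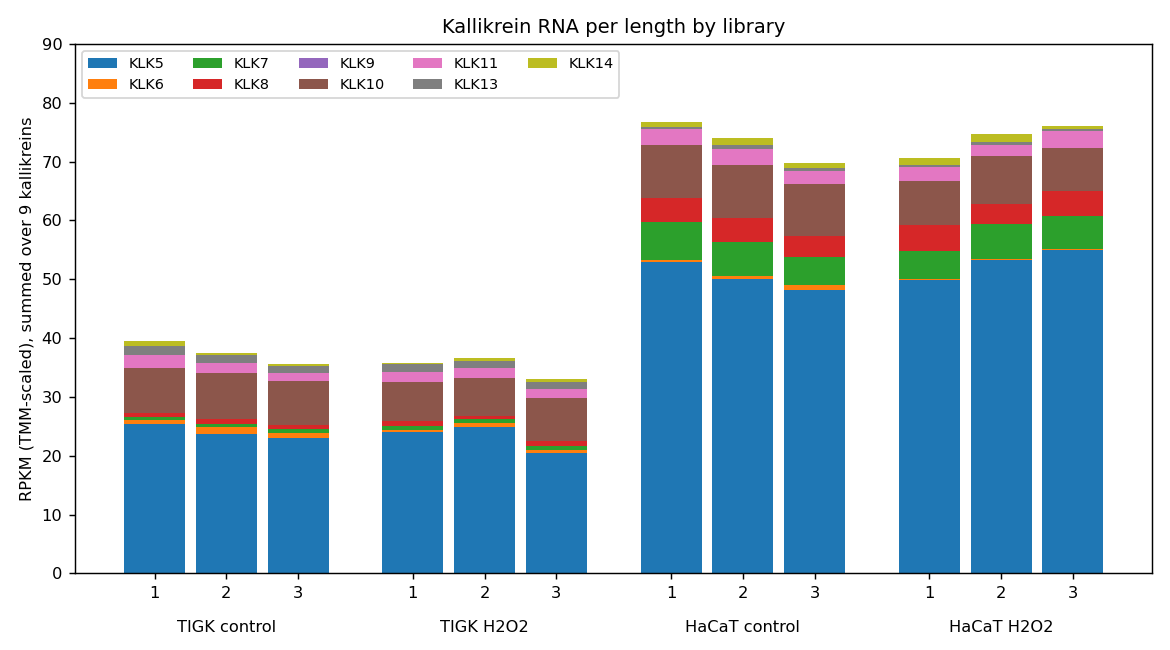
RPKM of the 9 kallikreins stacked for each of the 12 libraries, with the replicate number on the x axis and 1 colour per gene. KLK5 fills most of every bar, and all 6 HaCaT bars (69.7 to 76.8 RPKM) stand above all 6 TIGK bars (33.1 to 39.5 RPKM).

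Summed over the 9 kallikreins, the level was 37.6 ± 1.89 RPKM in untreated TIGK, 35.2 ± 1.86 in treated TIGK, 73.5 ± 3.56 in untreated HaCaT and 73.8 ± 2.87 in treated HaCaT (SD, n = 3, no test). KLK7 made up 1.40% of the sum in untreated TIGK and 7.69% in untreated HaCaT, and KLK13 made up 3.62% and 0.652%. The ratio of summed kallikrein RPKM to SPINK5 RPKM was 39.1 ± 8.97 in untreated TIGK and 47.7 ± 8.65 in untreated HaCaT. After H2O2 it was 47.4 ± 13.6 in TIGK and 50.6 ± 3.23 in HaCaT, and the 4 groups overlapped in this ratio, with TIGK libraries from 30.8 to 63.0 and HaCaT libraries from 38.5 to 55.6.

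To ask how the lines differ before any stress, untreated HaCaT was compared with untreated TIGK. Of the 9 members tested, 5 were higher in HaCaT (KLK7, KLK8, KLK5, SPINK5 and KLK11) and 1 was lower (KLK13) at an adjusted p under 0.01 in edgeR (quasi-likelihood test, Benjamini-Hochberg adjustment across the 16618 genes tested). In this comparison 59.9% of all genes tested passed, 29.1% higher and 30.8% lower, and the median log2 fold change was 0.67 over the members and -0.01 over all genes. The libraries of the lines did not overlap for 7 members higher in HaCaT and 2 lower, beside 36.2% and 37% of all genes. In bulk RNA, fewer cells that express a gene and less of its RNA in each cell cannot be told apart.

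KLK7, the chymotrypsin-like enzyme of the cornified layer, had the largest difference of the members. Its normalized counts (TMM-scaled) were 33.6, 43.5 and 60.6 in untreated TIGK and 568.5, 499.5 and 434.4 in untreated HaCaT. The lowest HaCaT library thus stood far above the highest TIGK library, a log2 fold change of 3.45 (SE 0.188, 95% interval 3.05 to 3.84, adjusted p = 5.31e-12 in edgeR), or 10.9-fold.

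KLK8, also called neuropsin, is a trypsin-like enzyme of the upper epidermis. Its normalized counts were 47.8, 65.3 and 37.6 in untreated TIGK and 280.4, 279.6 and 234.0 in untreated HaCaT. The groups were well apart, with a log2 fold change of 2.39 (SE 0.200, adjusted p = 2.91e-09 in edgeR). In the GENCODE 44 annotation 40.05% of the exon bases of KLK8 are shared on the same strand with KLK9 or a readthrough gene (AC011473.4), so how its reads were assigned is uncertain. AC011473.4 itself held 2 to 14 raw counts per library.

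KLK5, the trypsin-like activator of other kallikreins, had 1527, 1428 and 1380 normalized counts in untreated TIGK and 3176, 3008 and 2897 in untreated HaCaT. The difference was 1.07 on the log2 scale (SE 0.0733, adjusted p = 1.67e-10 in edgeR), with no overlap. KLK11, a trypsin-like member found in many glandular and stratified epithelia, had 242.0, 185.6 and 167.2 normalized counts in untreated TIGK and 320.9, 308.3 and 255.7 in untreated HaCaT. Its groups were next to each other without overlap, at a log2 fold change of 0.57 (SE 0.160, adjusted p = 0.00385 in edgeR), and the call was lost (adjusted p = 0.0142 to 0.0260) without TIGK control replicate 2 or 3 or HaCaT control replicate 1 or 2.

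SPINK5, the inhibitor, was also higher in HaCaT. Its normalized counts were 129.1, 193.9 and 149.5 in untreated TIGK and 248.3, 306.1 and 199.4 in untreated HaCaT. The highest TIGK library lay just under the lowest HaCaT library, and the log2 fold change came to 0.67 (SE 0.197, 95% interval 0.26 to 1.08, adjusted p = 0.00540 in edgeR). The call was lost without TIGK control replicate 1 or 3 or HaCaT control replicate 1 or 2 (adjusted p = 0.0134 to 0.0405) and with total counts as the only scaling (0.60, adjusted p = 0.0125).

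KLK13, a trypsin-like kallikrein known from oral and oesophageal epithelium, went the other way. Its normalized counts were 116.9, 98.5 and 82.6 in untreated TIGK and 24.4, 42.0 and 37.5 in untreated HaCaT. Every TIGK library exceeded every HaCaT library, and HaCaT over TIGK gave a log2 fold change of -1.53 (SE 0.265, adjusted p = 4.20e-05 in edgeR), so that TIGK was 2.89-fold higher.

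The 3 other members tested did not pass the limit. KLK6, a trypsin-like enzyme of skin and brain, had 51.9, 76.7 and 67.9 normalized counts in untreated TIGK and 25.2, 35.4 and 49.4 in untreated HaCaT, without overlap (log2 fold change -0.85, adjusted p = 0.0408 in edgeR). KLK10 lay at 1044 to 1093 in untreated TIGK and 1231 to 1258 in untreated HaCaT, without overlap and with a small difference of 0.21 on the log2 scale (adjusted p = 0.0127 in edgeR, 0.00695 with the filterByExpr filter). KLK14, a potent trypsin-like activator, had only 17.6 to 31.5 normalized counts in untreated TIGK and 32.6 to 51.9 in untreated HaCaT (log2 fold change 0.79, 95% interval -0.06 to 1.65, adjusted p = 0.0913 in edgeR).

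KLK9 stayed under the count limit and was not tested. It held 0 raw counts in all 6 TIGK libraries, which allows up to 3 counts in each for counting error alone, then 1, 3 and 1 raw counts in untreated HaCaT and 0, 1 and 0 in treated HaCaT. At this depth KLK9 was not detectable in TIGK, and 96.33% of its exon bases are shared on the same strand with KLK8 or AC011473.4.

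**Figure D2:**
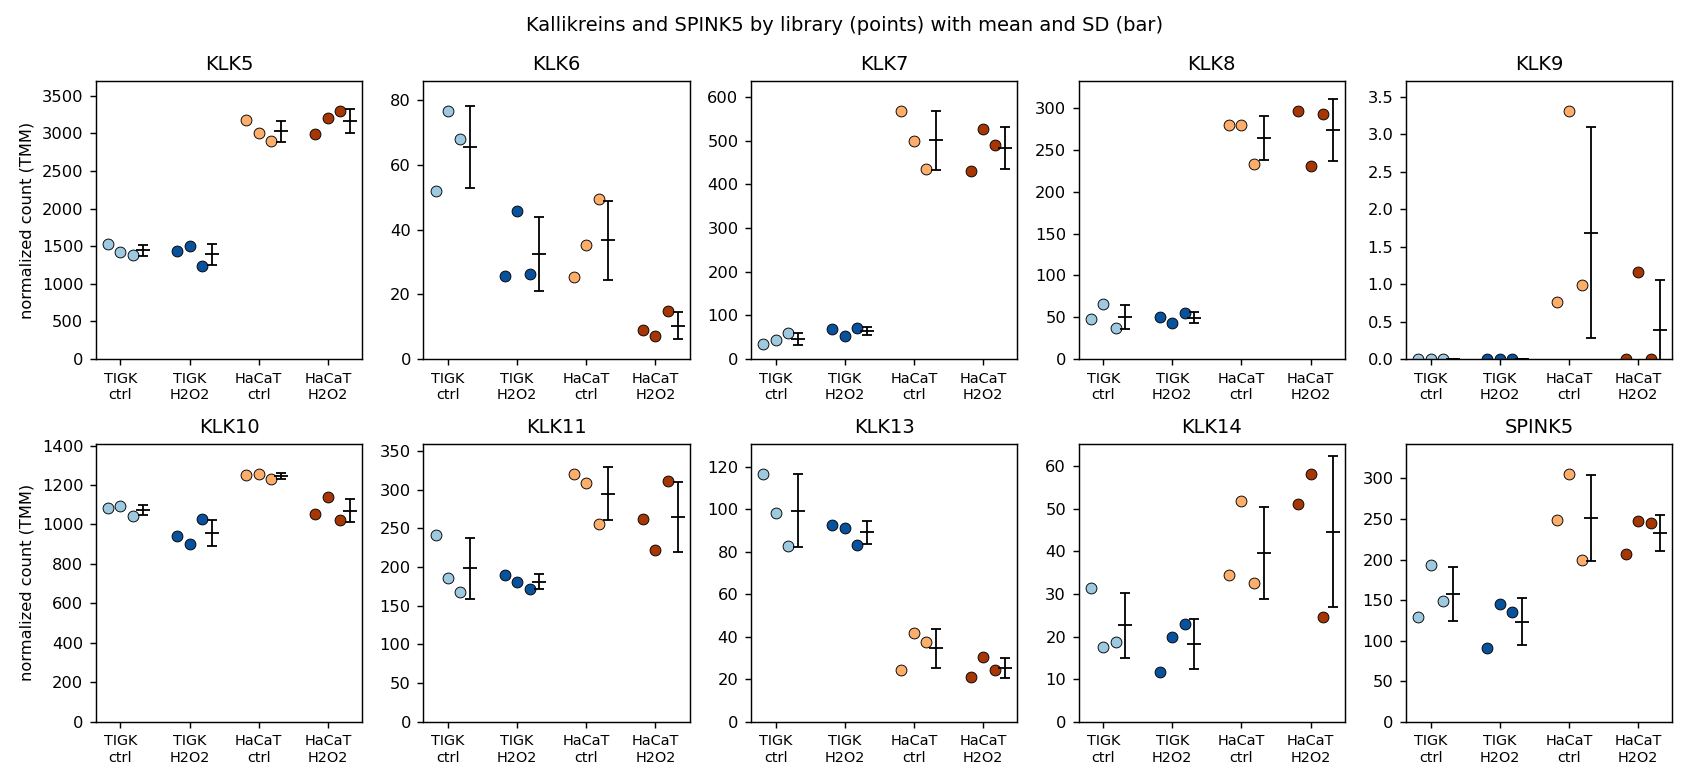
Normalized counts (TMM-scaled, y axis from 0 in each panel) of the 10 members in the 12 libraries, grouped on the x axis by line and treatment, with points for libraries and a bar for mean ± SD (n = 3). KLK5, KLK7 and KLK8 are separated by line. KLK5 and KLK8 show little change after H2O2, and KLK7 in TIGK has a higher treated mean with overlapping libraries. KLK13 is higher in TIGK, and the KLK6 libraries after H2O2 lie below the untreated ones in both lines. KLK9 is at or near 0.

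To see whether the lines still differ under stress, treated HaCaT was compared with treated TIGK. Here 5 of 9 members were higher in HaCaT and 2 were lower at an adjusted p under 0.01 in edgeR, beside 60% of all genes tested that passed (30.2% higher, 29.8% lower). The members higher were again KLK7, KLK8, KLK5, SPINK5 and KLK11, and those lower were KLK13 and KLK6. Libraries of the treated lines did not overlap for 6 members higher in HaCaT and 2 lower, beside 35.8% and 35.6% of all genes. The median over the members was 0.90 and that over all genes 0.02 on the log2 scale.

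After H2O2, KLK7 had 69.6, 52.4 and 70.5 normalized counts in TIGK and 430.7, 526.0 and 491.3 in HaCaT. The lines were again far apart, by 2.91 on the log2 scale (SE 0.179, adjusted p = 3.30e-11 in edgeR). KLK8 differed by 2.46 (adjusted p = 1.86e-09) and KLK5 by 1.19 (adjusted p = 3.60e-11).

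SPINK5 had 90.5, 144.7 and 135.4 normalized counts in treated TIGK and 207.0, 247.3 and 244.6 in treated HaCaT. All HaCaT libraries were higher, by 0.90 on the log2 scale (SE 0.201, adjusted p = 5.74e-04 in edgeR). KLK11 was higher in treated HaCaT by 0.56 (adjusted p = 0.00533 in edgeR), and this call was lost without TIGK control replicate 2, any 1 of the TIGK H2O2 replicates or HaCaT H2O2 replicate 1 or 3 (adjusted p = 0.0106 to 0.0421), and with total counts as the only scaling (0.48, adjusted p = 0.0137).

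KLK13 stayed higher in TIGK, with 92.8, 91.4 and 83.2 normalized counts after H2O2 against 21.1, 30.3 and 24.6 in HaCaT. That is a log2 fold change of -1.81 for HaCaT over TIGK (SE 0.279, adjusted p = 1.12e-05 in edgeR). KLK6 had 25.5, 45.7 and 26.1 normalized counts in treated TIGK and 8.90, 7.00 and 14.9 in treated HaCaT, without overlap. Its difference of -1.64 (SE 0.426, adjusted p = 0.00219 in edgeR) lost the call without TIGK H2O2 replicate 2 (-1.36, adjusted p = 0.0146) or HaCaT H2O2 replicate 2 (-1.43, adjusted p = 0.0135).

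KLK10 and KLK14 did not pass after H2O2. KLK10 overlapped between the treated lines (log2 fold change 0.16, adjusted p = 0.0584 in edgeR). KLK14 was at 11.6 to 23.0 normalized counts in treated TIGK and at 24.6 to 58.3 in treated HaCaT, a log2 fold change of 1.26 (95% interval 0.40 to 2.13) with an adjusted p of 0.0109 in edgeR and 0.00639 in DESeq2.

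**Figure D3:**
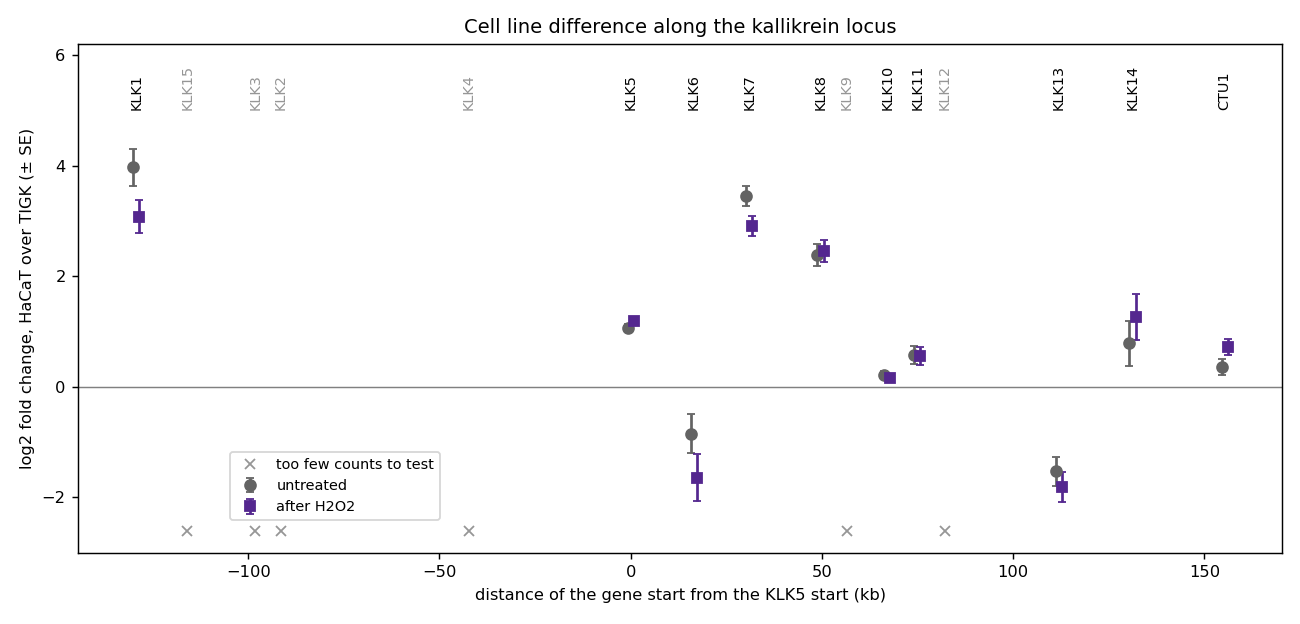
Log2 fold change of HaCaT over TIGK (y axis, with SE) against the distance of each gene start from the start of KLK5 in kb (x axis), for untreated (circles) and treated cells (squares), with crosses at genes with too few counts to test. Along the locus KLK6 (-0.85 untreated) lies below 0 between KLK5 (1.07) and KLK7 (3.45), and KLK13 (-1.53) lies below 0 between KLK11 (0.57) and KLK14 (0.79), where the untreated values of KLK6 and KLK14 did not pass.

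Along the locus, KLK6 lies 16.58 kb from the KLK5 start and had an untreated log2 fold change of -0.85 that did not pass, between KLK5 and KLK7, which were higher in HaCaT at 1.07 and 3.45. KLK13 at 112.0 kb was lower at -1.53 and stood between KLK11, higher at 0.57, and KLK14, whose 0.79 did not pass. After H2O2, KLK6 passed as lower, at -1.64, between the higher KLK5 (1.19) and KLK7 (2.91). Of the 6 other kallikreins of the locus, only KLK1, tissue kallikrein, had enough counts to test and was higher in HaCaT by 3.97 untreated (adjusted p = 2.85e-09) and 3.08 after H2O2 (adjusted p = 2.45e-08 in edgeR). In TIGK, KLK1 held few reads, with 5 to 12 raw counts per library untreated and 12 to 18 treated. In HaCaT it held 96 to 211 and 101 to 126. KLK12 had 13 to 20 raw counts per library in untreated TIGK and 0 to 2 in untreated HaCaT, too few to be tested over all groups. KLK2 and KLK3, the prostate kallikreins, were at 0 in all 12 libraries. Of the genes beside the cluster, 3 were tested. CTU1, a tRNA-modifying enzyme gene next to KLK14, gave 0.36 untreated, which did not pass (adjusted p = 0.0274), and was higher in HaCaT by 0.72 after H2O2 (adjusted p = 1.37e-04 in edgeR). C19orf48 was lower in untreated HaCaT (log2 fold change -0.38, adjusted p = 1.02e-04), gave -0.11 after H2O2 (adjusted p = 0.178) and rose within HaCaT by 0.28 (adjusted p = 0.00339 in edgeR). CLEC11A did not pass in any of the 5 comparisons.

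The next comparison asked whether H2O2 changed the family within each line. In TIGK, 0 of 9 members passed in edgeR, while 3 had an unadjusted p under 0.05 and 0 passed in DESeq2, beside 23.2% of all genes tested that passed (10.2% higher, 12.9% lower). In HaCaT, 1 member passed (KLK6, lower), beside 34.1% of all genes (15.2% lower and 18.9% higher), and DESeq2 passed 2. The median log2 fold change of the members was -0.16 in TIGK and -0.11 in HaCaT, and that of all genes was 0.01 and 0.04. Libraries did not overlap for 2 members in each line, KLK6 and KLK10, both lower after H2O2, beside 25.4% of all genes lower in TIGK and 24.1% in HaCaT. No member was higher after H2O2 without overlap, beside 25.7% of all genes in TIGK and 29.8% in HaCaT.

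Summed levels of several marker lists also differed between untreated and treated libraries. In TIGK the sums did not overlap for the basal keratinocyte list (1095000 to 1124000 normalized counts untreated, 1258000 to 1305000 treated), the mucosal list (64850 to 68130, then 75340 to 79050), the fibroblast list (803.7 to 864.7, then 926.5 to 937.7), the melanocyte list (426.4 to 447.9, then 579.1 to 707.1) and the skin suprabasal list (58190 to 62160, then 62250 to 75750). In HaCaT they did not overlap for the basal list (968200 to 1022000, then 1074000 to 1180000), the melanocyte list (153.6 to 182.3, then 207.6 to 230.4) and the suprabasal list (65140 to 80680, then 41040 to 51180).

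Gene by gene the lists were mixed. Of the 5 basal genes, 2 rose (KRT5 and KRT14, most of the sum) and 2 fell (TP63 and ITGA6) in each line. Beside these stand 10.2% of all genes higher and 12.9% lower in TIGK, and 18.9% and 15.2% in HaCaT. In TIGK 0 of 3 mucosal and 0 of 3 fibroblast genes tested passed in edgeR, beside 23.2% of all genes. Of the 5 suprabasal genes, 1 fell in TIGK (FLG) and 0 rose, beside 12.9% and 10.2% of all genes. Their median log2 fold change was -0.22, and that of all genes 0.01. KRT10, which gave 0.23 and did not pass (adjusted p = 0.0691 in edgeR), made up most of the sum. In HaCaT, 3 of the 5 fell, FLG, IVL and KRT1, beside 15.2% of all genes. The median was -1.21, and that of all genes 0.04. Of the 6 melanocyte genes, 2 were tested, MITF and PMEL. MITF passed as higher in both lines (0.57 in TIGK, 0.80 in HaCaT), and PMEL did not pass in either. In HaCaT the means of PMEL were 47.1 untreated and 27.6 treated, those of MLANA were 14.97 and 3.65, and TYR and DCT were at 0. The part of these markers in the responses of the members was not tested.

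KLK6 was the member that changed in HaCaT. Its normalized counts were 25.2, 35.4 and 49.4 without and 8.90, 7.00 and 14.9 with H2O2, which rest on 32 to 50 and 6 to 14 raw counts. The groups did not overlap, and the level fell by 1.80 on the log2 scale (SE 0.423, 95% interval -2.69 to -0.91, adjusted p = 0.00191 in edgeR), 3.48-fold. The call was lost without HaCaT control replicate 3 (-1.53, adjusted p = 0.0130) or HaCaT H2O2 replicate 2 (-1.59, adjusted p = 0.0121).

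In TIGK, KLK6 had 51.9, 76.7 and 67.9 normalized counts without and 25.5, 45.7 and 26.1 with H2O2. All treated libraries lay below all untreated ones, at a log2 fold change of -1.01 (SE 0.356, 95% interval -1.76 to -0.26) that did not pass (adjusted p = 0.0338 in edgeR). The responses of the lines differed by 0.79 (TIGK minus HaCaT, 95% interval -0.37 to 1.95, adjusted p = 0.398 in edgeR), so a difference between them was not shown. In GENCODE 44, 20.5% of the exon bases of KLK6 overlap genes on the opposite strand, and those antisense genes held at most 6 raw counts in any library.

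KLK10 had 1082, 1093 and 1044 normalized counts in untreated and 940.0, 901.4 and 1028 in treated TIGK. In HaCaT it had 1248, 1258 and 1231 without and 1051, 1137 and 1022 with H2O2, the groups being separate in both lines. The log2 fold changes of -0.17 in TIGK (adjusted p = 0.0839) and -0.22 in HaCaT (SE 0.0721, adjusted p = 0.0178) did not pass in edgeR, and DESeq2 gave 0.00488 for the HaCaT value.

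KLK7 had a higher mean in treated than in untreated TIGK, at 64.2 ± 10.2 and 45.9 ± 13.7 normalized counts (SD, n = 3), and the libraries overlapped. The log2 fold change of 0.48 (95% interval 0.03 to 0.94) did not pass (adjusted p = 0.0883 in edgeR). In HaCaT the value was -0.06 (95% interval -0.37 to 0.26), and the responses differed by 0.54 (95% interval -0.01 to 1.09, adjusted p = 0.205 in edgeR).

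**Figure D4:**
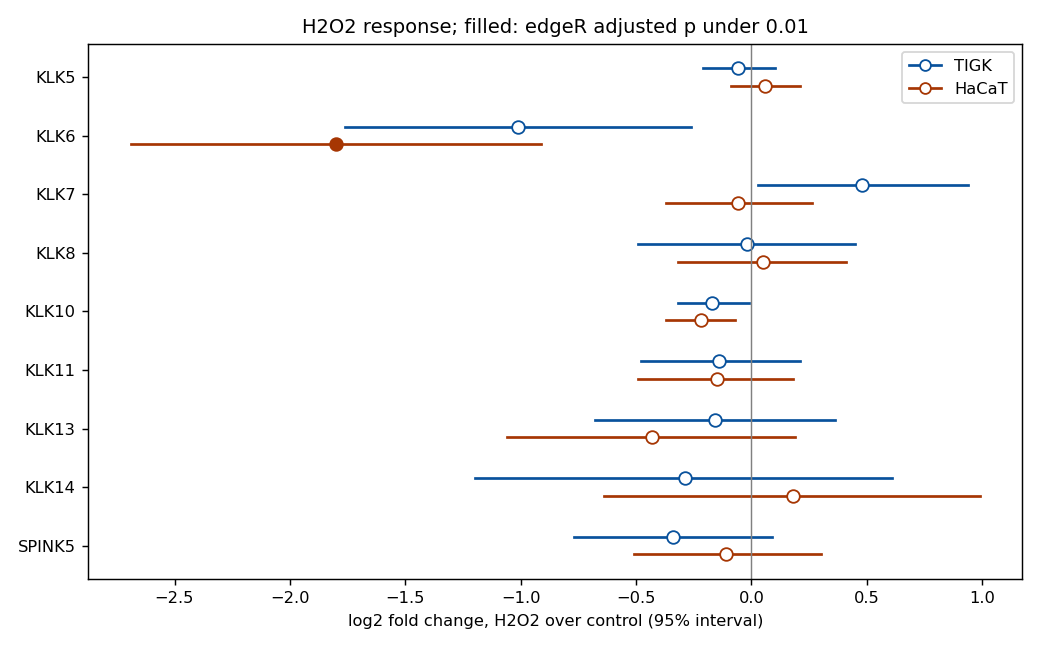
Log2 fold change of H2O2 over control (x axis) with 95% interval for the 9 tested members, in TIGK (blue) and HaCaT (red), with filled points at an adjusted p under 0.01. The single filled point is KLK6 in HaCaT at -1.80, and the intervals of KLK5 are the narrowest beside those of KLK10, around -0.06 in TIGK and 0.06 in HaCaT.

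KLK5 had narrow intervals around 0. It measured 1445 ± 75.4 and 1391 ± 140 normalized counts in untreated and treated TIGK, and 3027 ± 141 and 3164 ± 157 in HaCaT (SD, n = 3). Its log2 fold changes were -0.06 (95% interval -0.21 to 0.10) in TIGK and 0.06 (95% interval -0.09 to 0.21) in HaCaT.

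SPINK5 gave -0.34 on the log2 scale (95% interval -0.77 to 0.09, adjusted p = 0.209 in edgeR) in TIGK. In HaCaT it gave -0.11 (95% interval -0.51 to 0.30, adjusted p = 0.683 in edgeR). KLK8, KLK11, KLK13 and KLK14 had log2 fold changes from -0.29 to -0.02 in TIGK and from -0.43 to 0.18 in HaCaT, all with overlapping libraries. Among these 4 genes the intervals were widest for KLK14, from -1.20 to 0.61 in TIGK and from -0.64 to 0.99 in HaCaT.

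For the difference of the responses, 0 of 9 members passed in edgeR, 0 had an unadjusted p under 0.05 and 0 passed in DESeq2, beside 5.3% of all genes tested that passed (2.32% higher, 2.98% lower). The values ran from -0.47 for KLK14 to 0.79 for KLK6 (TIGK minus HaCaT), with a median of 0.02 beside -0.04 over all genes.

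The proteases that can stand upstream of the kallikreins were counted as a list of 8, of which 4 were tested. In untreated cells all 4 were lower in HaCaT, beside 30.8% of all genes: matriptase (ST14, -0.28), prostasin (PRSS8, -1.15), TMPRSS11E (-2.57) and TMPRSS13 (-1.15). After H2O2, 2 of the 4 were lower in HaCaT, TMPRSS11E (-2.40) and TMPRSS13 (-1.73), beside 29.8% of all genes. PRSS8 (-0.35, 95% interval -0.59 to -0.11) just missed the limit (adjusted p = 0.01003 in edgeR), and ST14 (-0.11) did not pass (adjusted p = 0.104 in edgeR). Within HaCaT, PRSS8 rose after H2O2 by 0.96 on the log2 scale (adjusted p = 3.99e-06) and TMPRSS13 fell by 0.51 (adjusted p = 6.36e-04 in edgeR). In TIGK, ST14 fell by 0.32 (adjusted p = 2.88e-04 in edgeR). MEP1A, MEP1B, HPN and PLG had at most 15 raw counts in any library and were not tested.

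Among 13 other protease inhibitors of epithelia, 11 were tested. In untreated cells 4 were higher and 5 lower in HaCaT, beside 29.1% and 30.8% of all genes, with a median of -0.06 on the log2 scale. Those higher were SERPINB1 (2.96), SPINK6, WFDC5 (1.56) and SPINT1 (0.41). Those lower were A2ML1 (-2.85), SPINK7 (-2.79), CST6 (-2.12), SLPI (-1.11) and SPINT2 (-1.0). SPINK7 and CST6 held at most 10 raw counts in any untreated HaCaT library. SPINK6, a Kazal-type inhibitor of kallikreins, was higher in HaCaT by 2.01 (adjusted p = 9.03e-10) and averaged 103.2 RPKM there, against 1.58 RPKM of SPINK5. After H2O2, 3 of the 11 rose in HaCaT and 2 fell, beside 18.9% and 15.2% of all genes. SPINK6 rose by 0.71, SPINT1 by 0.30 and SPINT2 by 0.37, and A2ML1 fell by 0.66 and SERPINB1 by 0.59. Their adjusted p-values were at most 5.29e-04 in edgeR. In TIGK 0 of 11 passed in edgeR, beside 23.2% of all genes.

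The desmosomal cadherins and corneodesmosin were taken as possible junction substrates of kallikreins, a list of 8 with 7 tested. Cleavage was not measured for any of them. In untreated cells 6 were higher in HaCaT, beside 29.1% of all genes, among them DSG1 by 1.53 and DSC1 by 3.38, and DSC2 was lower by 0.35 on the log2 scale. DSG4 is also among the 6, with 0 to 3 raw counts per library in untreated TIGK and 77 to 103 in untreated HaCaT. It met the count limit through HaCaT alone, so its direction was fixed by the filter. After H2O2, 6 of 7 fell in HaCaT, beside 15.2% of all genes that were lower, with a median of -0.52 against 0.04 over all genes. DSG1 fell by 0.85 (adjusted p = 1.63e-06), DSC1 by 0.93 (adjusted p = 4.31e-04) and DSG3 by 0.52 (adjusted p = 6.04e-07 in edgeR). In TIGK 1 of 7 fell, beside 12.9% of all genes that were lower, namely DSC3 by 0.34 (adjusted p = 2.91e-04 in edgeR). There DSG2 (-0.21, adjusted p = 0.0117) and DSG1 (-0.27, adjusted p = 0.040 in edgeR) did not pass. DSC1 (-0.05), DSC2 (-0.03), DSG3 (0.04) and DSG4 (0.26) had adjusted p-values of at least 0.6347 in edgeR. The responses of the lines differed for 2 of the 7, DSC2 and DSG3, beside 5.3% of all genes. CDSN, corneodesmosin of the cornified layer, had 0 to 7 raw counts per library and was not tested, and DSG4, with 0 to 3 raw counts in TIGK, did not pass in either response.

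Of 8 other targets, 7 were tested, and 4 were higher and 2 lower in untreated HaCaT, beside 29.1% and 30.8% of all genes. F2RL1 (PAR2), the receptor that trypsin-like kallikreins cleave, was higher in HaCaT by 3.08 on the log2 scale (SE 0.0680, adjusted p = 1.09e-17 in edgeR). It fell by 0.32 in HaCaT after H2O2 (adjusted p = 2.81e-04), and in TIGK the value was -0.05 (adjusted p = 0.617). FLG, the gene of filaggrin, was higher in untreated HaCaT by 6.64 and fell after H2O2 by 2.01 in HaCaT (adjusted p = 6.36e-09) and by 1.83 in TIGK (adjusted p = 3.9e-05 in edgeR). Antimicrobial CAMP, whose product KLK5 and KLK7 process, did not pass in any of the 5 comparisons.

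**Figure D5:**
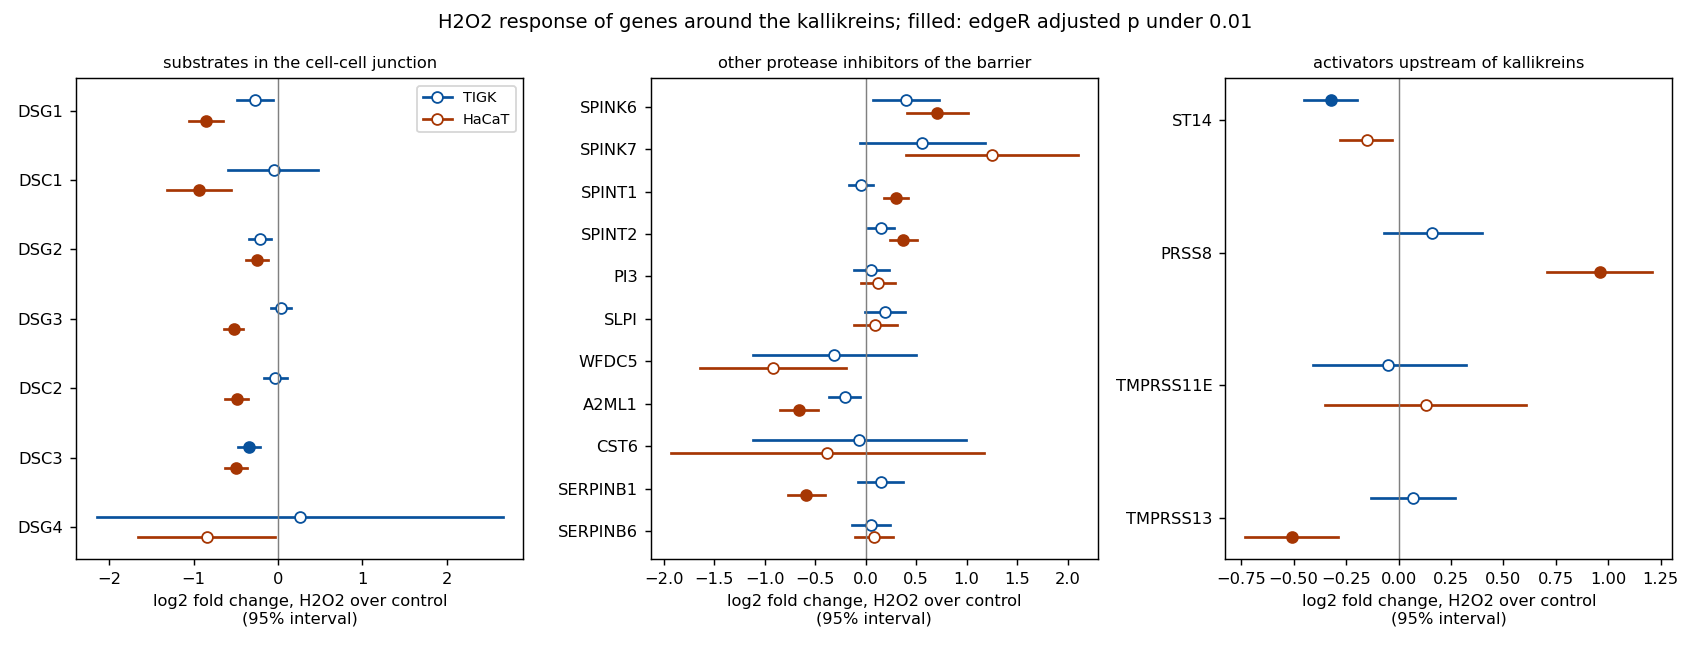
Log2 fold change of H2O2 over control (x axis, a scale of its own in each panel) with 95% interval for the tested possible junction substrates, other inhibitors and upstream activators, in TIGK (blue) and HaCaT (red), with filled points at an adjusted p under 0.01. The left panel has 6 filled HaCaT points below 0 and 1 filled TIGK point, DSC3 at -0.34.

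Across the 12 libraries, the genes whose log2 CPM followed KLK5 most closely were VAMP7 (Pearson r = 0.997), FAM45A (0.997), CDA (0.995), NCOA4 (0.994) and SRPX (0.994). These points share the step between the lines, and 2180 genes had an r over 0.9. Within the 6 HaCaT libraries the r of SRPX was -0.008 and that of VAMP7 0.964.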

How the data were processed

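Polyadenylated RNA of HaCaT and TIGK was sequenced as paired reads in 12 libraries, grouped by their labels. The authors deposited raw read counts per gene for 58735 genes, which were mapped to GRCh38 with HISAT2 2.0.5 and counted with featureCounts 1.5.0-p3 according to the study's methods. The labels name HISAT2 2.0.0 as well. The annotation release, the treatment of reads with several matches and the use of strand are not given in the sources used here. Deposited fold changes and p-values of the authors' own comparisons were not used. No row lacked a gene, and every sample column was used.

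The tests were run with edgeR 4.0.16 (R 4.3.3). Genes with a mean count of at least 10 were kept (16618), TMM factors were computed, and all libraries entered 1 quasi-likelihood fit in which each group had its mean. Its 5 contrasts were adjusted by Benjamini and Hochberg over all genes tested at a limit of 0.01. RPKM used the gene lengths of the deposited table. The code was tested on simulated counts. DESeq2 1.42.0, other scalings, filters and limits, the compared groups alone, a block on replicate numbers and fits without each library were alternatives. Figures were drawn with matplotlib 3.10.9.

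The members, the gene lists and the marker lists were chosen with earlier results of these data known. All 10 members are named whatever their values, and of a list those that passed a limit or were near 0. Replicate pairs differed beyond sampling noise (chi-square per degree of freedom 4.45 to 28.2 over 12 pairs). Upstream windows and start sites came from RefSeq (GRCh38.p14) and exon overlaps from GENCODE 44.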

Additional observations from a re-analysis of the deposited data

Results flagged for a closer look

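The H2O2 responses of 5 genes around the kallikreins differed between the lines by the interaction test in edgeR at an adjusted p under 0.01 (TIGK minus HaCaT, n = 3 per group). They were DSC2 (0.47 on the log2 scale, adjusted p = 0.00261), DSG3 (0.56, adjusted p = 1.04e-04), PRSS8 (-0.80, adjusted p = 0.00352), SERPINB1 (0.73, adjusted p = 0.00192) and SPINT1 (-0.35, adjusted p = 0.00702). By list, 2 of 7 junction genes were higher, 1 of 4 upstream proteases was lower, and of 11 other inhibitors 1 was higher and 1 lower. Of 7 other targets and 3 flanking genes, 0 passed. Over all genes tested, 5.3% passed, 2.32% higher and 2.98% lower. In each of these 5 genes the response of HaCaT passed the limit and that of TIGK did not. Among the marker genes, IVL (1.00, adjusted p = 4.95e-05) and TP63 (0.37, adjusted p = 0.00544) also differed by this test, IVL having passed in HaCaT alone and TP63 as lower in both lines.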

How the results depend on the processing

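Each of 45 member values was recomputed under the alternatives, 846 values in all. Of these, 788 kept their direction and their side of the limit, 20 lost the call, 13 gained it and 25 changed sign. The 25 belonged to 12 results, none of which was called and none over 0.29 in size on the log2 scale, with adjusted p-values of at least 0.485. Without a filter or with filterByExpr, KLK8 in TIGK changed from -0.02 to 0.01. The other sign changes came with 1 library left out, with values from -0.19 to 0.24 (KLK8), -0.25 to 0.03 (KLK11), -0.47 to 0.02 (KLK14) and -0.09 to 0.06 (KLK5) for the TIGK response. For the HaCaT response they were -0.15 to 0.04 (KLK7), -0.04 to 0.16 (KLK8), -0.06 to 0.47 (KLK14) and -0.25 to 0.05 (SPINK5). For the difference of responses they were -0.15 to 0.03 (KLK5), -0.24 to 0.22 (KLK8), -0.10 to 0.18 (KLK11) and -0.39 to 0.01 (SPINK5).

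The count of members lower in HaCaT after H2O2 went from 1 to 2 with DESeq2, with filterByExpr and at a limit of 0.05, and ran from 0 to 2 with 1 library left out. In TIGK it went from 0 to 1 at a limit of 0.05. Members higher in untreated HaCaT went from 5 to 3 when a log2 fold change of at least 1 was required, and from 3 to 6 with 1 library left out, while those lower went from 1 to 2 at a limit of 0.05. After H2O2 the 5 higher members became 3 at a log2 fold change of at least 1, and the lower members ran from 1 to 2 with 1 library left out. The cause was not tested. The difference of responses needs all 4 groups and was not recomputed on groups alone.

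Replicate numbers did not pair the samples, with correlations of same-numbered deviations from -0.121 to 0.026 and 0 of 18 pairs over 0.1. With a block on these numbers the counts of called members were 0 and 0 in TIGK, 0 and 1 in HaCaT, 5 and 1 between untreated lines, 5 and 2 after H2O2 and 0 and 0 for the difference (higher and lower), as without it. Over all genes the block took those lower in the difference of responses from 496 to 326. Counts over all genes for that difference also moved with DESeq2 (385 to 689 higher). KLK6, KLK14 and KLK13 rest on few reads, so smaller changes in them were not detectable at this depth.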
